A study of Homo sapiens with 6 samples.

Results

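SMAD2/3 peaks of Hs578T cells that were 150 bp or more wide, were listed at 16 h of TGFβ3, and shared no base with any peak of 3 other lists are described here. The other lists were those of Hs578T at 1.5 h and of BT549 at 1.5 h and at 16 h. These peaks, called late-only peaks below, numbered 559 of the 969 peaks of that width and of the 1849 peaks in all of the Hs578T 16 h list, and of 20600 peaks in the 4 lists together. Hs578T and BT549 are established human triple-negative breast cancer lines, a class that lacks the oestrogen receptor, the progesterone receptor and HER2 amplification. Cells of each line, grown in serum-containing medium with insulin, were given recombinant TGFβ3 and collected at 1.5 h or at 16 h. SMAD2/3-bound chromatin was then precipitated and sequenced (ChIP-seq). Each line and time has 1 library, so no difference between them has a replicate check and no p-value is given. All 4 libraries come from treated cells, and input DNA was not analysed here, so "late" means listed at 16 h and not at 1.5 h, and says nothing of unstimulated cells.

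TGFβ ligands bind a pair of receptor kinases, which phosphorylate SMAD2 and SMAD3. The phosphorylated proteins join SMAD4 and enter the nucleus. The complex with SMAD4 binds DNA only weakly by itself, so its sites in a given cell follow the factors already present there. Early binding falls on direct targets, among them genes for inhibitors of the pathway, while hours later new factors made in response to TGFβ can bring SMAD proteins to other sites. In breast cancer cells the pathway is known for driving mesenchymal change and invasion.

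The peaks were chosen by their measured width and by their absence from the other lists, so both are given as a description. Of all Hs578T 16 h peaks, 71.9% overlapped no peak of the 3 other lists, and of those of 150 bp or more 57.7% did not, which is the set described. The 410 remaining wide peaks fell into 239 that overlapped the Hs578T 1.5 h list alone, 85 that overlapped it and a BT549 list, and 86 that overlapped BT549 only. Of the 880 narrower peaks of the library, 770 or 87.5% were in no other list. The same rule applied to the other libraries gave 172 of 491 wide peaks in Hs578T at 1.5 h (35.0%), 4410 of 8092 in BT549 at 1.5 h (54.5%) and 3216 of 6873 in BT549 at 16 h (46.8%). Absence from a list is not absence of binding, since a site can fall short of the authors' threshold, and how deeply each library was sequenced is unknown.

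Most late-only peaks were short calls of low score, with a minority that stood among the strong sites of the library. The score was assigned by the authors' peak caller; it grows with read depth as well as with enrichment, so it ranks peaks within 1 list only. Late-only peaks had a median score of 65.0 (95% order-statistic interval 63.4 to 67.2), with quartiles of 57.0 and 86.3, against a lowest score of 50.01 in any list. Wide 16 h peaks that overlapped a 1.5 h peak had a median of 151 (126 to 177). The 86 wide 16 h peaks that overlapped BT549 only had one of 75.7 (62.2 to 81.2), nearer to that of the late-only peaks. Scores of at least 100 were found for 99 late-only peaks, or 17.7% (14.8 to 21.1, 95% Wilson interval), and for 219 of the 324 wide peaks that overlapped a 1.5 h peak, or 67.6% (62.3 to 72.5). Among the 86 that overlapped BT549 only there were 18, or 20.9% (13.7 to 30.7). Low scores were thus not particular to the late-only peaks. Intervals here and below cover counting error only.

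The best late-only peak ranked 48 in its library, so each of the 47 peaks above it overlapped a peak of another list. Late-only peaks made up 8 of the 100 highest-scoring 16 h peaks, 34 of the first 200 and 162 of the first 500. Among wide 16 h peaks with a score from 50 to below 60, 185 of 232 were late-only, or 79.7% (74.1 to 84.4). From 100 to below 150 the number was 62 of 128, or 48.4% (39.95 to 57.0), and at 250 or more it was 10 of 110, or 9.09% (5.01 to 15.9). The share of wide peaks that were late-only was thus lower in each higher band of score.

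**Figure D1:**
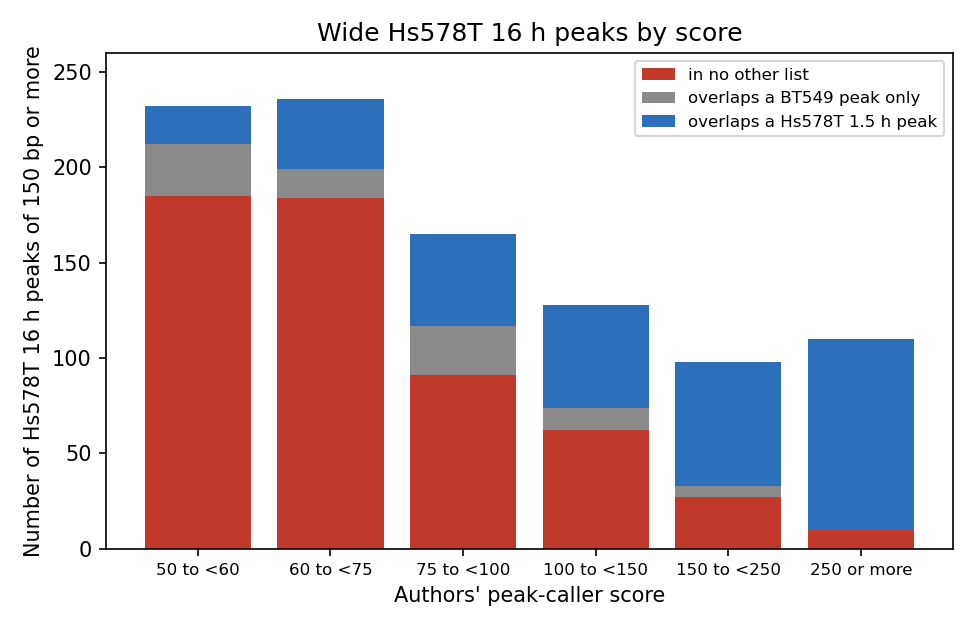
Number of Hs578T 16 h peaks of 150 bp or more (vertical axis) in 6 bands of the authors' score (horizontal axis), divided by the lists they overlap. Late-only peaks (red) are 185 of 232 in the lowest band and 10 of 110 in the highest, where 100 peaks overlap a Hs578T 1.5 h peak.

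The width limit lay inside a pile of calls of nearly the same size. The library had 35 peaks of 149 bp, 38 of 150 bp and 39 of 151 bp, but 14 of 152 bp. A limit of 100 bp would have kept 1259 peaks and one of 200 bp 222. Of the late-only peaks, 69 or 12.3% (9.87 to 15.3) were 150 or 151 bp wide, with a median score of 54.6. Median width was 187 bp (179 to 191) with a maximum of 606 bp, against 359 bp (324 to 397) for wide 16 h peaks that overlapped a 1.5 h peak. Wide 16 h peaks that overlapped BT549 only had a median width of 189.5 bp (180 to 213), close to the late-only value. The share that was late-only was 84.3% (78.0 to 89.1) of the 166 peaks from 150 to below 160 bp, 62.3% (54.7 to 69.4) of those from 200 to below 250 bp, and 8.43% (4.15 to 16.4) of the 83 peaks of 500 bp or more. Across the 559 peaks wider calls had higher scores (Spearman's rho 0.69, a description only, since both come from the same reads of 1 library).

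**Figure D2:**
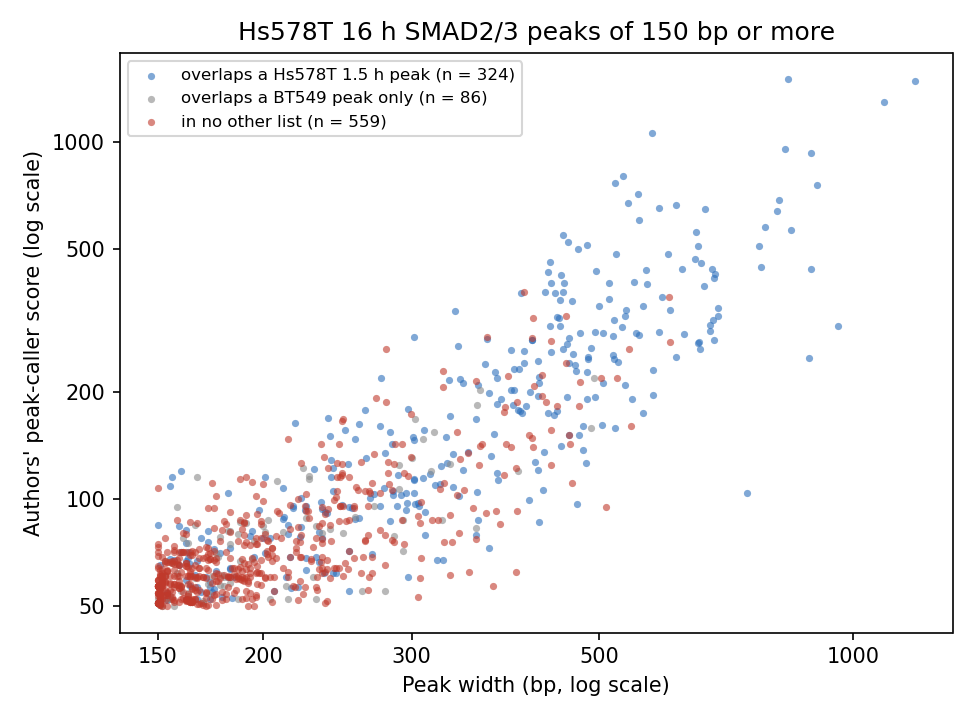
Each point is 1 Hs578T 16 h peak of 150 bp or more, with its width in bp (horizontal, log scale) and the authors' score (vertical, log scale). Late-only peaks (red) crowd at the narrow, low-scoring corner, with a median of 187 bp and 65.0, and reach 606 bp and a score of 380.0.

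Some scores recurred exactly. The score 51.23 was shared by 162 peaks of the library, of which 17 were late-only, all of 150 or 151 bp. Just inside the limit, the highest-scoring late-only peaks of 150 bp lay at chr16:49736094-49736243 with a score of 107, at chr3:56941209-56941358 with 75.01, and at chr7:70104137-70104286 with 73.4. Just outside it, the leading peaks of 149 bp in no other list lay at chr6:124162582-124162730 with 95.1, at chr1:211432493-211432641 with 67.8, and at chr6:105307879-105308027 with 61.0. The lowest late-only score was 50.06, at chr1:67078890-67079043.

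The 10 highest-scoring late-only peaks differed in how far they stood from any early peak. For each, the score at 16 h in Hs578T is given with the nearest peak of the 3 libraries that had none there; positions are on hg19. The leading peak, at chr18:13447604-13448010, scored 380.0. Its nearest Hs578T 1.5 h peak was 5327 kb away. In BT549 the nearest peak at 1.5 h was 53.3 kb away and scored 77.9, and that at 16 h was 138 kb away and scored 62.8. It thus had no early call of its own line in the wider region. The Hs578T 1.5 h list has only 1373 peaks, and the median distance to it over all late-only peaks was 295 kb.

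Next came chr7:80506173-80506777, 605 bp wide, with a score of 367. The nearest Hs578T 1.5 h peak was 216 kb away and scored 60.2. BT549 had peaks 5.94 kb away at 1.5 h, with a score of 305, and 6.04 kb away at 16 h, with 151. A strong BT549 call therefore lay in the same neighbourhood but not at the same position.

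At chr7:27645793-27646249 the score was 325, with the nearest Hs578T 1.5 h peak 418 kb away and BT549 peaks 75.2 kb and 164 kb away. The region chr1:177312470-177312887 scored 321, and its nearest Hs578T 1.5 h peak was 1192 kb away. Both distances were above the late-only median of 295 kb. The chromosome 1 site was 1 of 3 side by side, described below with the groups.

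The peak at chr2:177023549-177023916, with a score of 285, was unlike these. A Hs578T 1.5 h peak with a score of 223 lay 855 bp away, while the nearest BT549 peaks were 1076 kb and 424 kb away. A similar case was chr7:27179708-27180249, with a score of 263, which had a Hs578T 1.5 h peak of score 88.7 at 3.28 kb and BT549 peaks at 15.6 kb and 5.18 kb. These were the only 2 of the 10 with an early Hs578T peak within 10 kb.

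Of the other leading peaks, chr20:50476869-50477284 scored 283 and had a Hs578T 1.5 h peak no nearer than 992 kb, with BT549 peaks 110 kb away at both times. The region chr4:140476371-140476809 scored 277, with an early Hs578T peak at 259 kb and BT549 peaks at 289 kb and 51.5 kb. The widest late-only peak, at chr10:77267998-77268603, scored 275, with an early Hs578T peak at 99.6 kb and BT549 peaks at 38.7 kb and 38.9 kb. At chr10:29543535-29543814 a score of 262 was reached in 280 bp, with an early Hs578T peak at 474 kb and BT549 peaks at 93.9 kb and 94.1 kb. Width did not set the order of these peaks, which ranged from 280 to 606 bp.

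The 5 widest late-only peaks included 3 of those already named, on chromosomes 10 and 7. The others were at chr5:173798558-173799102, 545 bp wide with a score of 160, and at chr10:77352984-77353508, 525 bp wide with 218. Their nearest Hs578T 1.5 h peaks scored 71.0 at 33.7 kb and 63.0 at 20.0 kb. The chromosome 10 peaks of 606 and 525 bp lay in 1 window of 1 Mb that held 7 late-only peaks.

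Late-only peaks had an early Hs578T peak nearby more often than the narrow peaks of the same library that were in no other list either. A Hs578T 1.5 h peak lay within 10 kb of 88 late-only peaks, or 15.7% (13.0 to 19.0), and of 52 of the 770 narrow peaks, or 6.75% (5.19 to 8.75). Among the 86 wide 16 h peaks that overlapped BT549 only, which also lack a 1.5 h overlap, 23 had one that near, or 26.7% (18.5 to 36.9). The late-only share thus lay between those of these sets. Median distance to the nearest early peak was 295 kb for the late-only peaks, 608 kb for the narrow ones and 335 kb for those that overlapped BT549 only. In the other direction, values were close to the late-only ones. Of the 172 wide Hs578T 1.5 h peaks in no other list, 23 or 13.4% (9.08 to 19.3) had a Hs578T 16 h peak within 10 kb. Their median distance to the nearest one was 298 kb. A BT549 peak of either time lay within 10 kb of 16.3% (13.5 to 19.6) of the late-only and 11.4% (9.37 to 13.9) of the narrow peaks. The BT549 lists hold 9225 and 8153 peaks and the Hs578T 1.5 h list 1373. Shares near BT549 are therefore not comparable with shares near the early Hs578T list. The differences between these sets of peaks were not tested, since each line and time has 1 library. The late-only shares were 30.4% and 22.8% when peaks had to share 50% of both to count as overlapping, which lets partly overlapping neighbours in, and the BT549 share was 27.4% when only the Hs578T 1.5 h list was used to choose.

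**Figure D3:**
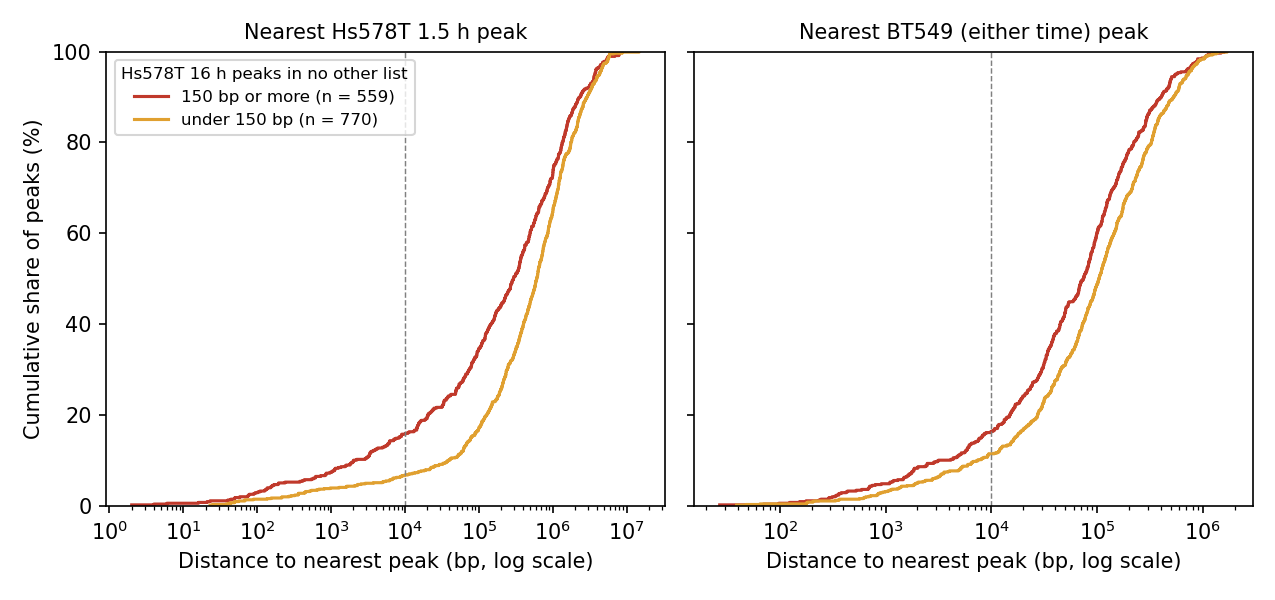
Cumulative share of Hs578T 16 h peaks in no other list (vertical, %) by distance to the nearest Hs578T 1.5 h peak (left) or BT549 peak (right), in bp on a log scale, for late-only peaks of 150 bp or more (red) and narrower peaks (yellow). At 10 kb (dashed line) the late-only share on the left is 15.7%, above the 6.75% of the narrow peaks. On the right it is 16.3%, above 11.4%. The BT549 lists hold more peaks, so the 2 panels are not comparable with each other.

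Late-only peaks within 10 kb of a Hs578T 1.5 h peak had a median score of 76.1 (69.8 to 87.0), and those farther away 63.6 (61.7 to 65.1). By band of score, the share within 10 kb was 7.57% (4.56 to 12.3) of 185 peaks from 50 to below 60, 13.6% (9.38 to 19.3) of 184 from 60 to below 75, and 26.4% (18.4 to 36.3) of 91 from 75 to below 100. In the higher bands it went no further in step with score, with 24.2% (15.2 to 36.2) of 62 peaks from 100 to below 150, 29.6% (15.9 to 48.5) of 27 from 150 to below 250, and 2 of the 10 peaks of 250 or more. With scores below 75 in both sets, 39 of 369 late-only peaks, or 10.6% (7.83 to 14.1), and 49 of 737 narrow ones, or 6.65% (5.07 to 8.68), had an early peak within 10 kb. Their median scores still differed, at 59.97 and 55.4. By band, the narrow share was 6.12% (4.39 to 8.47) of 539 peaks from 50 to below 60. It was 8.08% (5.04 to 12.7) of 198 from 60 to below 75, and 10.3% (3.58 to 26.4) of 29 from 75 to below 100. In each of these comparisons the intervals of the wide and the narrow set overlapped. The part of score in the difference between the sets was not tested further.

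A small number of late-only peaks lay right beside an early peak without touching it. A Hs578T 1.5 h peak lay within 500 bp of 32 late-only peaks, or 5.72% (4.08 to 7.97), and within 100 bp of 16 of them. In 25 of the 32 cases the early peak was itself overlapped by a different 16 h peak next to the late-only one, and in 7 cases no 16 h peak overlapped it. The shortest gap, at chr15:96596257-96596427, was 2 bp, to an early peak with a score of 74.4, while the late-only peak scored 52.7. At chrX:106919673-106919861 a late-only peak with a score of 82.3 ended 6 bp from an early peak that scored 299 and ranked 19 in its list.

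At the other end, 4 late-only peaks had no peak of any other list within 1 Mb. The strongest of them lay at chrX:71335279-71335742, 464 bp wide, with a score of 111. The others were at chrX:71528800-71528993 with 52.5, at chrX:33157098-33157247 with 57.0, and at chr14:63206889-63207038 with 71.2. Over the whole set, 27.01% (23.5 to 30.8) had a peak of some other list within 10 kb and 71.6% (67.7 to 75.1) within 100 kb.

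Late-only peaks mostly stood alone, with a few tight groups. When peaks with at most 10 kb between them were joined, 475 of 559 stood alone, and 84 fell into 37 groups, of which 30 were pairs, 6 had 3 peaks and 1 had 6. No peak of another list lay between the outer ends of 31 of these groups. By choice no late-only peak overlaps another list, so only the gaps between them could hold one. In 25 neighbouring pairs that gap was at most 1 kb, so the number 31 is a description only. Another late-only peak lay within 10 kb of 15.0% (12.3 to 18.2) of the set, while a peak of their own set lay that near to 39.5% (34.3 to 44.9) of the 324 wide 16 h peaks with a 1.5 h peak and to 3.51% (2.42 to 5.05) of the 770 narrow peaks. These sets differ in size, which alone changes how often members meet. With any other Hs578T 16 h peak counted, each set was measured against the same list. The shares within 10 kb were then 27.7% of the late-only peaks, 59.0% (53.5 to 64.2) of the wide peaks with a 1.5 h peak and 10.6% (8.66 to 13.0) of the narrow ones. The differences were not tested. With 50% of both peaks required for an overlap, the share with another late-only peak within 10 kb was 22.98%. Within 100 bp, another late-only peak lay beside 28 of the 559. The numbers were 40 of the 324 wide peaks with a 1.5 h peak and 9 of the 770 narrow ones. Whether calls this close are separate sites was not tested.

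The group of 6 lay at chr17:46639872-46673889, a span of 34.0 kb that held 10 Hs578T 16 h peaks in all. Its late-only peaks scored 223, 187, 206, 58.3, 194 and 68.7 in order of position, with widths of 428, 400, 327, 152, 428 and 269 bp. Between them the Hs578T 1.5 h list had 3 peaks, with scores of 80.5, 53.8 and 130.6, and BT549 had 2 peaks at 1.5 h, with 72.0 and 99.3, and none at 16 h. The last late-only peak ended 126 bp before a Hs578T 1.5 h peak with a score of 219, at which the 16 h list had a peak of 649 bp and score 471. The stretch as a whole was thus occupied at both times in Hs578T, while these 6 positions were listed at 16 h only.

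**Figure D4:**
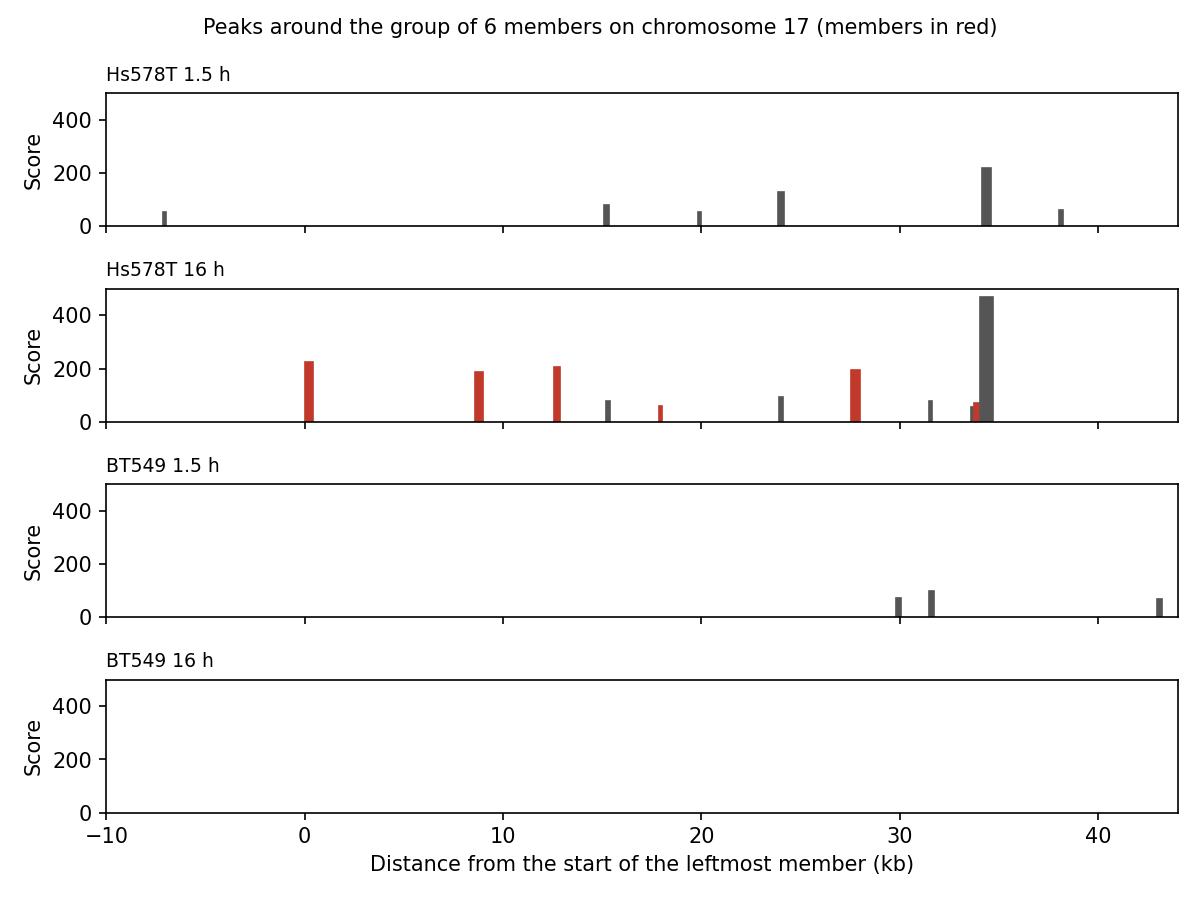
Peaks of the 4 lists around the group of 6 late-only peaks on chromosome 17, drawn as bars. The horizontal axis is the distance from the start of the first one (kb) and the vertical axis the authors' score. The vertical axis is the same in each panel, though scores rank peaks within 1 list only. Red bars are late-only, with scores of 58.3 to 223; grey bars at 1.5 h in Hs578T lie between and beside them, and BT549 has no peak there at 16 h.

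The next groups in order of number and closeness had no peak of another list between their ends. At chr1:177309748-177312887, 3 late-only peaks scored 117, 124 and 321 within 3.14 kb, with widths of 386, 360 and 418 bp. The nearest BT549 peaks to these 3 were 25.7 to 28.4 kb away at 1.5 h, with a score of 94.4, and 58.4 to 61.1 kb away at 16 h, with 56.2. At chr7:69557378-69563542, 3 late-only peaks scored 181, 71.6 and 71.2 within 6.17 kb, the nearest Hs578T 1.5 h peak being 48.2 kb from the first, with a score of 77.1. The nearest call of another library was thus 25.7 kb from the first of these groups and 48.2 kb from the second.

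The other groups of 3 peaks, chosen after their values were seen, spanned chr14:61119779-61126129, chr17:69019826-69029753, chr6:1597696-1608043 and chrX:40014403-40028103. The chromosome 14 group differed from the other 3 in holding peaks of every other list within its span, 2 from Hs578T at 1.5 h with a top score of 234, and 1 from each BT549 time, with 195 and 67.1. Its late-only peaks scored 71.4 to 78.7. The chromosome 17 group reached 187, the chromosome 6 group 156 and the chromosome X group 129.

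In windows of 1 Mb, late-only peaks were found in 402 windows, of which 313 had 1. The 12 windows with 4 or more held 76 peaks, or 13.6% (11.0 to 16.7) of the set. The fullest, at chr8:37000001-38000000, had 11 late-only peaks among 23 Hs578T 16 h peaks, beside 15 Hs578T peaks at 1.5 h and 3 and 7 in BT549. Its late-only peaks were weak, with scores of 51.3 to 87.3. By contrast the 8 in the window of chromosome 17 that holds the group of 6 had a median score of 165.

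Among the other full windows, chr7:69000001-70000000 had 7 late-only peaks of 13 at 16 h, with 5 Hs578T peaks at 1.5 h. The region chr5:124000001-125000000 had 11 Hs578T peaks at 16 h, of which 4 were late-only, and 1 at 1.5 h, while BT549 had 7 at each time. Of the 402 windows, 208 also had a Hs578T 1.5 h peak, and 18 had no peak of any other list. Late-only peaks thus came both in windows with an early Hs578T peak and in windows without one. The same counts were not made for other Hs578T 16 h peaks, so this is not shown to be particular to late-only peaks.

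The spread over chromosomes was set beside that of the wide Hs578T 16 h peaks that overlap a 1.5 h peak and that of the wide peaks listed in BT549 at 16 h only. Of 23 chromosomes compared, the 95% Wilson intervals of the late-only share and of the share of the early-overlapping Hs578T peaks were apart on 0. Against the BT549 set, whose larger number narrows its intervals, they were apart on 7, higher in Hs578T on 4 and lower on 3. Chromosome X held 37 late-only peaks, 6.62% (4.84 to 8.99), against 2.74% (2.23 to 3.36) of the BT549 set. Chromosomes 2, 7 and 15 were also higher, with 6.98%, 7.87% and 3.94% against 4.26%, 4.51% and 1.93%. Chromosomes 5, 6 and 8 were lower, with 4.11%, 4.47% and 4.47% against 8.99%, 7.87% and 9.27%. No difference in these shares was tested.

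**Figure D5:**
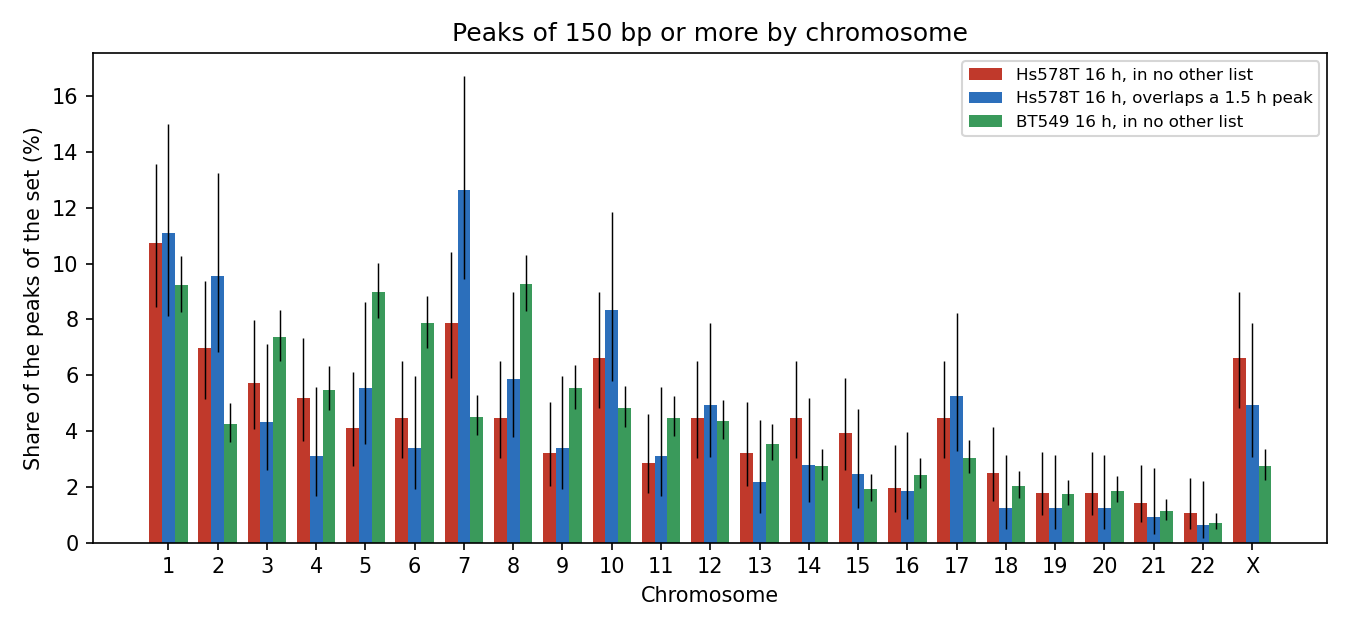
Share of each set of peaks of 150 bp or more (vertical, %, with 95% Wilson intervals) on each chromosome (horizontal), for late-only Hs578T peaks (red), Hs578T 16 h peaks that overlap a 1.5 h peak (blue) and BT549 16 h peaks in no other list (green). On chromosome X the late-only share is 6.62% and the BT549 share 2.74%; on chromosome 8 they are 4.47% and 9.27%.

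Near the edge of the longest stretch without peaks of their chromosome, within 1 Mb, lay 7 late-only peaks, 1.25% (0.608 to 2.56). The edges were set from all lists, late-only peaks included. No share was computed for other peaks, so this one is not shown to be low or high. Such an edge often borders a centromere.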

How the data were processed

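SMAD2/3 ChIP-seq peaks of 4 libraries were used, 1 per line and time; 2 input DNA samples were not analysed here. The authors used MACS 1.4.2, Bowtie 1.1.0, Picard and the hg19 build, per the submitters' processing notes; settings and the role of input were not given in the sources used here. Each library has its own deposited list of peaks, with a score that the authors' caller gave to each peak. Late-only peaks were chosen by width and by sharing 1 bp with no peak of 3 other lists; positions are given from 1, and distances are bases between edges. The choice of members and lists was made with earlier results of these data known. Named peaks are the 10 of highest score, the 5 widest, those of the 3 largest groups (shorter span first) and the 3 leading ones beside the width limit. Shares have 95% Wilson intervals, medians binomial order-statistic intervals; no test was made, and read depth is unknown. The overlap step was tested on simulated lists, where 622 of 622 planted peaks were recovered. The gene table and sequences at hand are on another build, so genes, promoters and motifs were not used here. Alternatives were other limits of width and score, other overlaps, chromosomes and lists. Python 3.11.15, numpy 2.4.6, pandas 2.3.3, scipy 1.17.1 and matplotlib 3.10.9 were used.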

Additional observations from a re-analysis of the deposited data

Results flagged for a closer look

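Wide peaks found in no other list were 3.25 times as many at 16 h as at 1.5 h in Hs578T (559 against 172), but 0.729 times as many in BT549 (3216 against 4410). The lists themselves changed in the same directions: all wide peaks numbered 969 at 16 h and 491 at 1.5 h in Hs578T, and 6873 and 8092 in BT549. As a share of the wide peaks of each list, those in no other list were 57.7% at 16 h and 35.0% at 1.5 h in Hs578T, and 46.8% and 54.5% in BT549. Both the counts and the shares of the lines thus moved in opposite directions with time. With 1 library per line and time this difference was not tested, and all 4 counts depend on sequencing depths that are unknown.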

How the results depend on the processing

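No paired analysis was possible because each line and time has 1 library and no result comes from a test. Of 69 values recomputed, 46 stayed within 1.5 times (counts) or inside the interval (medians, shares) of the value reported. The limit to autosomes and X removed none of the 559 peaks, so its 7 values, counted among the 46, could not move. Some of the other shifts follow from the rule itself, as when a new width limit moves the median width. Letting in peaks that overlap BT549 likewise raises the share near BT549. The cause of the rest was not tested. With a width of 100 bp or more the number of peaks was 1259, the median score 58.5, the median width 147 bp and the share within 10 kb of a Hs578T 1.5 h peak 10.8%. With 200 bp or more these were 222, 92.5, 259 bp and 21.6%, and with a score of 100 or more 99, 135, 299 bp and 25.3%. No peak was near a gap edge (0%) under either limit, which allows up to 1.35% and 3.03% (3 counts). When 50% of both peaks had to overlap, the medians were 68.4 and 194 bp, and the shares with a Hs578T 1.5 h peak, a BT549 peak and another late-only peak within 10 kb were 30.4%, 22.8% and 22.98%. With peaks within 500 bp counted as shared, the first 2 of these shares were 10.7% and 13.3%. The share near BT549 was 27.4% with absence from the Hs578T 1.5 h list alone and 19.6% without the BT549 1.5 h list. Leaving out either BT549 list, or peaks near gap edges, was chosen after seeing the data. Promoter and motif shares, planned beforehand, were not run, since an hg19 annotation and genome were not used here.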
